A study of Mus musculus with 4 samples.

Results

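Nr4a1, Nr4a2 and Nr4a3, the 3 NR4A orphan nuclear receptors, and Egr1, Egr2 and Egr3 of the early growth response zinc finger family were followed in mouse CD4+ T cells given interferon alpha (IFNa), a type I interferon. These 6 genes were chosen by name, as the rows of the array whose annotation lists exactly that gene. The choice was made with earlier results of these data known, so counts of members called below only describe these genes. Each of the 6 had 1 row of its own and none shared a row with another gene, out of 24922 rows and 19752 genes with a row of their own. All 6 were among the 10699 genes tested, and each lay above the array's median row on every one of the 4 arrays.

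The cells were CD4+ T cells isolated by negative selection from C57BL/6 spleens (male mice, 6 weeks of age) and stimulated for 48 h with beads carrying antibodies to CD3 and CD28, which stand in for antigen and costimulation. Baseline (2 arrays) is these activated cells without IFNa. The other groups, of 1 array each, had a further 2 h or 8 h of culture with IFNa at 100 U/ml. All groups were therefore activated cells, and neither resting cells nor time-matched untreated cells were analysed here, so the effect of IFNa and that of time in culture cannot be told apart. The labels do not say whether the beads were still present during that culture, nor whether separate mice or cultures gave the 2 baseline arrays. The sample notes of both IFNa groups mention JAK inhibitors as an option, with no statement that these samples received one.

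Both families are immediate early genes. In T cells, signalling from the antigen receptor through calcium and calcineurin, protein kinase C and the RAS to MAP kinase pathway switches on their transcription within minutes to hours, and the messages are short-lived. NR4A receptors bind DNA without a known natural hormone, and in T cells Nr4a1 (Nur77) is widely used as a reporter of antigen receptor signalling. EGR proteins bind GC-rich sites through zinc fingers, and Egr2 and Egr3 restrain T cell activation and are linked to anergy.

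The upstream sequences are shown for the 4 members that had a window, and those printed share a short motif. Not all of the 5 Egr2 windows hold it, and 1 of those that do is printed. The 4 members with a window were also those called higher at 2 h. No window of an uncalled member was available, so the motif cannot be related to the calls. RefSeq (GRCm38.p6) windows were matched for 4 of the 6 members, Egr1 and Egr3 being named only. Each sequence gives the 250 bases before a RefSeq start site, 5′ to 3′ on the gene's strand. They are Nr4a1 at chr15:101266596-101266845 (plus strand), Nr4a2 at chr2:57124004-57124253 (minus strand), Nr4a3 at chr4:48045055-48045304 (plus strand) and Egr2 at chr10:67537619-67537868 (plus strand). Capitals mark the core of the cAMP response element (CRE), CGTCA or TGACG on the other strand, and, in Egr2, a CArG box, the site type of serum response factor.
Nr4a1: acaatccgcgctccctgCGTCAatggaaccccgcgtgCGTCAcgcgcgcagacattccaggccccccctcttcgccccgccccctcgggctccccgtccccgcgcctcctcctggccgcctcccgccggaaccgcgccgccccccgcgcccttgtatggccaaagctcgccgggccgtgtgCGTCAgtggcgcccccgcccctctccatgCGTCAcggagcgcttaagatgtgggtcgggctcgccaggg
Nr4a2: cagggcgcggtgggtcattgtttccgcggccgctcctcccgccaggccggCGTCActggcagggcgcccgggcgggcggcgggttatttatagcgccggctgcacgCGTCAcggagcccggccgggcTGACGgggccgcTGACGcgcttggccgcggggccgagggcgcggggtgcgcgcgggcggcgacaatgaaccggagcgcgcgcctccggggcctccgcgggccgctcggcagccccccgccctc
Nr4a3: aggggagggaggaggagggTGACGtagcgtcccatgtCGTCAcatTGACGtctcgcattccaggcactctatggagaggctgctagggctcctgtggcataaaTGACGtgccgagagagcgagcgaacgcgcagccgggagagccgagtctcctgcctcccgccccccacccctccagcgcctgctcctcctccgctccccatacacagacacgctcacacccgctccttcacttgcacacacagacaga
Egr2: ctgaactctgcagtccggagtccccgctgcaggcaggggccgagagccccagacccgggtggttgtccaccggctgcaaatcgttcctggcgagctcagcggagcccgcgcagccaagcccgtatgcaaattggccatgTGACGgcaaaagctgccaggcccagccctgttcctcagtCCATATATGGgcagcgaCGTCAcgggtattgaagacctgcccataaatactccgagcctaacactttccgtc

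The Nr4a1, Nr4a2 and Nr4a3 windows held 4 CRE cores each. Of the 32851 windows of the same length in the RefSeq table, 17.8% held at least 1 such core and 0.137% held at least 4. These shares were not matched for base composition, and the Nr4a1, Nr4a2 and Nr4a3 windows were 74.4%, 80% and 63.6% G or C. The CRE core was chosen after these sequences had been seen, so its count in them is a description. In Nr4a1 the cores began at positions −233, −213, −69 and −40, counted from the start site. The Egr2 window held 2 CRE cores and 1 CArG box (both ends CC and GG, with A or T in all places between), CCATATATGG, which begins at position −72. A CArG box was found in 1.47% of all windows. At least 2 CRE cores were found in 3.9% of all windows. Egr2 had 5 RefSeq windows, and the first of them by position held neither motif. The next held a CArG box and no CRE core. The remaining windows, among them the one printed, overlap one another and hold the same sites. The full CRE palindrome TGACGTCA, the EGR site GCGTGGGCG, the NR4A site AAAGGTCA, the STAT site TTCNNNGAA and the core of the interferon-stimulated response element were searched on both strands and had no match in any of the 8 member windows. They were found in 1.55%, 0.536%, 1.34%, 7.02% and 2.98% of all windows. Nr4a1, Nr4a3 and Egr2 have further RefSeq transcripts, so part of a window can lie inside a longer one.

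**Figure D1:**
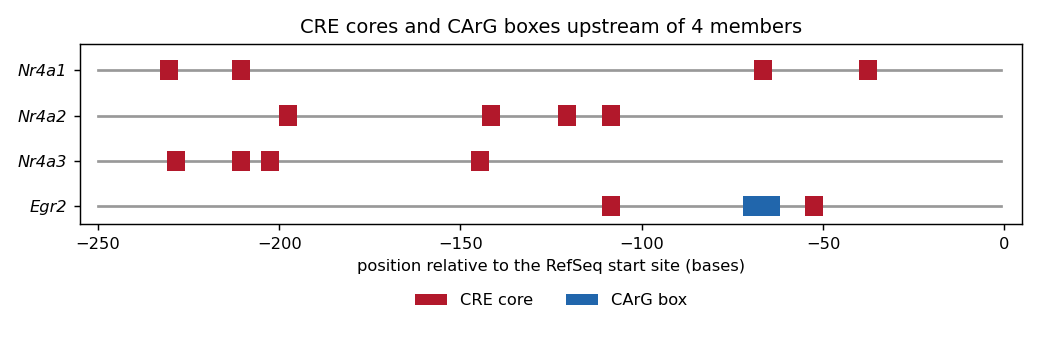
Positions of CRE cores (red, CGTCA or TGACG) and the CArG box (blue) in the 250 bases before the start site of Nr4a1, Nr4a2, Nr4a3 and 1 of the Egr2 starts, in bases from that start. The 3 NR4A windows hold 4 cores each and the Egr2 window holds 2 cores and 1 CArG box.

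Across the whole series, median intensity per array ran from 176 to 199. With only 4 arrays, all estimates here are imprecise. The upper quartile was 669 on baseline 1, 730 on baseline 2, 769 at 2 h and 574 at 8 h. It was thus highest at 2 h and lowest at 8 h. Of 8 measured interferon response genes, 8 were called higher at 2 h and 7 at 8 h (limma, adjusted p under 0.05). Their median log2 differences were 3.12 and 2.99. Stat2, not called at 8 h, stood at 0.88 there (adjusted p = 0.0725). Among all genes tested, 1.09% were called higher at 2 h and 0.654% at 8 h. Without a time-matched untreated array, IFNa and time in culture cannot be told apart for these genes either. Of 8 T cell markers with a row all were above the median row, and Cd4 lay between the 94.7th and 96.8th percentile of rows on each array. Zbtb7b, the CD4 lineage factor, lay between the 68.3rd and 85.9th percentile, with −0.83 at 2 h (adjusted p = 0.155) and a rise of 1.12 from 2 h to 8 h (adjusted p = 0.0279). The summed intensity of these 2 CD4 markers was 4247 and 6422 without IFNa, 5334 at 2 h and 6402 at 8 h. Of the markers of other cells, all 4 B cell genes, both CD8 genes, 2 of 6 monocyte and macrophage genes, 1 of 3 natural killer cell genes, 2 of 5 neutrophil and erythroid genes and 0 of 4 dendritic cell genes rose above the median row on at least 1 array. Summed B cell marker intensity was 2776 at 8 h and between 2099 and 2184 on the other 3 arrays, and the CD8 sum was 921 at 2 h and between 1001 and 1191 elsewhere. The monocyte sum was 764 to 993, the dendritic cell sum 388 to 549, the neutrophil and erythroid sum 503 to 698, each lowest at 2 h. The natural killer sum was 430 at 2 h and 307 at 8 h. The part of these cells in the results below was not tested. In such bulk samples fewer expressing cells and less RNA per cell cannot be told apart.

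Levels below are log2 of the deposited intensity, and because each array row has its own probes a level is compared only between arrays, never between genes. Nr4a1 measured 9.24 on baseline 1, 9.89 on baseline 2, 11.87 at 2 h and 8.93 at 8 h. The 2 h array was far above both baseline arrays and the 8 h array below both, but the baseline arrays themselves were 0.65 apart, the widest gap among the members. Nr4a2, which is also induced by antigen receptor signals, stood at 7.93 and 7.86 without IFNa, 9.34 at 2 h and 7.83 at 8 h. It was high on the 2 h array, and the other 3 arrays lay close together. Nr4a3 stood at 9.89 and 9.86 without IFNa, 11.53 at 2 h and 7.89 at 8 h. Its baseline arrays were only 0.04 apart, so both the high 2 h array and the low 8 h array stood well clear of them.

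Egr2 had baseline levels of 9.26 and 9.45, rising to 11.00 at 2 h and then 8.36 at 8 h, again with the 2 h array highest and the 8 h array lowest. Egr3, its close relative, stood at 8.66 and 9.03 without IFNa, 9.90 at 2 h and 8.43 at 8 h. Egr1, the member induced most widely across tissues by growth factors, stood at 9.31 and 9.77 without IFNa, 10.42 at 2 h and 9.16 at 8 h. For Egr1 and Egr3 the 8 h array was close to baseline 1 (0.15 and 0.23 below it) while the baseline arrays were 0.46 and 0.37 apart. In all 6 members the order was thus 2 h highest, baseline between and 8 h lowest. That order, with the 2 h array above both baseline arrays and the 8 h array below both, was shared by 28.6% of all genes tested. The 2 h array lay above both baseline arrays in 44.5% of genes and the 8 h array below both in 55.9%, so the order alone sets the members little apart and the sizes carry the description.

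**Figure D2:**
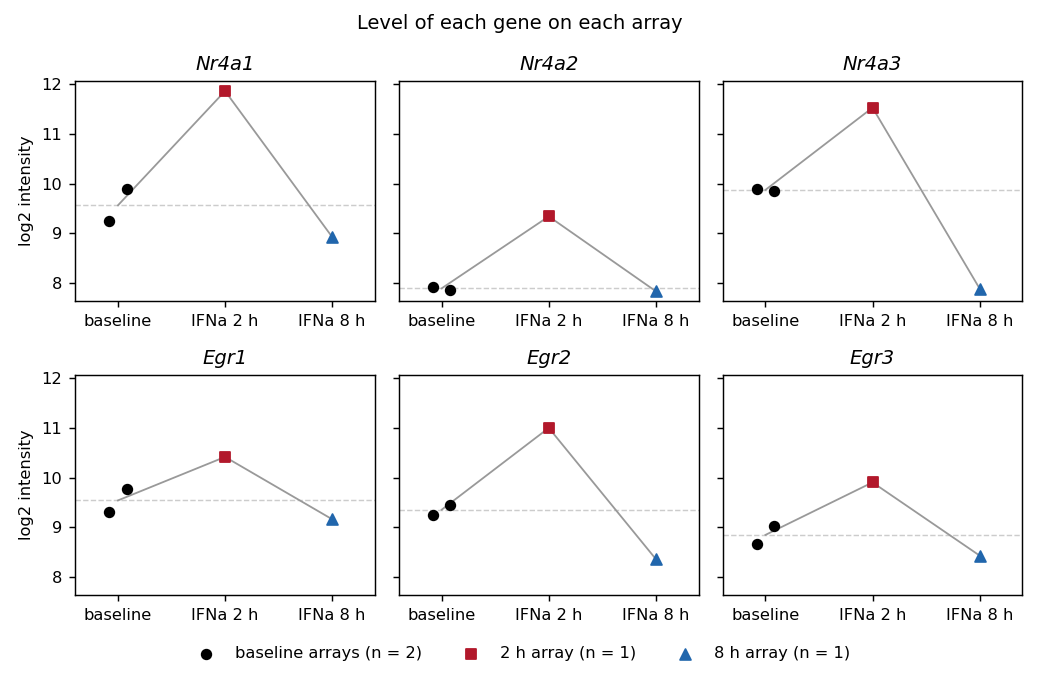
Log2 intensity of each gene on each array: the 2 baseline arrays (black points), the 2 h array (red square) and the 8 h array (blue triangle), with the baseline mean dashed and grey lines joining group means. In every panel the 2 h array is highest and the 8 h array lowest, and the 8 h array of Nr4a2 lies next to its baseline arrays.

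The 2 h comparison sets the array after 2 h of culture with IFNa against activated cells at baseline. All 3 NR4A genes and Egr2 rose, Nr4a1 most. Nr4a1 was 4.93-fold above the baseline mean (log2 difference 2.30, SE 0.28, 95% interval 1.67 to 2.94, adjusted p = 0.00676), placing it 21st among the 10699 genes by size of rise. Nr4a3 rose 3.15-fold (1.66, SE 0.20, adjusted p = 0.00682), Egr2 3.13-fold (1.65, SE 0.21, adjusted p = 0.00886) and Nr4a2 2.73-fold (1.45, SE 0.20, adjusted p = 0.0132). They ranked 43rd, 45th and 70th. Egr3 at 1.06 (SE 0.23, 95% interval 0.53 to 1.58, adjusted p = 0.0889) and Egr1 at 0.88 (SE 0.24, 95% interval 0.32 to 1.43, adjusted p = 0.195) did not pass the threshold. So 4 of the 6 were called higher and none lower (limma, adjusted p under 0.05). Of all genes, 1.09% were called higher and 0.00935% lower. As the members were chosen with earlier results of these data known, their share is a description.

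The members' median log2 difference at 2 h was 1.55, and that of all genes tested was 0.06. The rise of the called members did not hang on 1 baseline array. Against baseline 1 alone and baseline 2 alone it was 2.62 and 1.98 for Nr4a1, 1.64 and 1.67 for Nr4a3, 1.74 and 1.55 for Egr2 and 1.42 and 1.48 for Nr4a2. Egr1 moved most in proportion, from 1.11 against baseline 1 to 0.64 against baseline 2, and Egr3 from 1.24 to 0.87. Baseline 2 was above baseline 1 in 4 members (Nr4a1, Egr1, Egr2 and Egr3) and in 67.5% of all genes. With quantile normalization or with arrays centred on their medians all 6 members were called higher at 2 h. The adjusted p of Egr1 was then 0.0322 and 0.0326. In these settings 3.1% and 2.72% of all genes were called higher. After quantile normalization the differences of Egr1 (0.75) and Egr3 (0.91) were smaller than in the fit reported. With every row tested no member was called.

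The 8 h comparison asks what remains later. None of the 6 was called higher, and Nr4a3 and Egr2 had fallen below their starting levels. Nr4a3 fell 3.96-fold below the baseline mean (log2 difference −1.99, SE 0.20, 95% interval −2.45 to −1.53, adjusted p = 0.00239), the 17th largest fall of the 10699 genes. Egr2 fell 1.99-fold (−0.995, SE 0.21, 95% interval −1.47 to −0.52, adjusted p = 0.0411). The call for Egr2 was lost with no filter on dim genes (adjusted p = 0.0894) and with a filter at the 60th percentile (adjusted p = 0.0532). Thus 2 of the 6 were called lower and none higher, against 3.35% of all genes called lower and 0.654% higher.

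The other 4 did not pass at 8 h. Nr4a1 stood at −0.64 (SE 0.28, 95% interval −1.27 to −0.00136, adjusted p = 0.203), with −0.31 against baseline 1 and −0.96 against baseline 2. Egr3 stood at −0.42 (95% interval −0.94 to 0.11) and Egr1 at −0.38 (95% interval −0.94 to 0.18). After quantile normalization these 3 values shrank to −0.35 for Nr4a1, −0.19 for Egr3 and −0.095 for Egr1. Against baseline 1 and baseline 2 alone Egr3 was at −0.23 and −0.60 and Egr1 at −0.15 and −0.61. Nr4a2 stood at −0.06, with an interval of −0.52 to 0.40. All genes tested had a median of −0.16 at 8 h, or 0.00 after quantile normalization and −0.24 with centred arrays. Relative to that median of the deposited values, Nr4a3 was at −1.82, Egr2 at −0.83, Nr4a1 at −0.47, Egr3 at −0.25, Egr1 at −0.22 and Nr4a2 at 0.10.

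**Figure D3:**
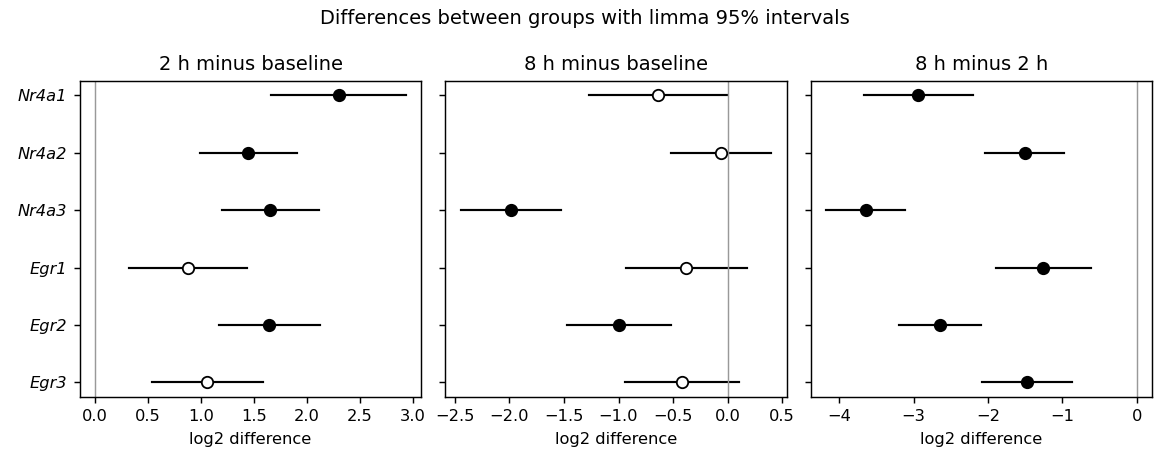
Log2 differences for the 6 genes in the 3 comparisons, with limma 95% intervals (horizontal bars) and filled points where adjusted p was under 0.05. At 2 h the NR4A genes and Egr2 are filled, at 8 h Nr4a3 and Egr2, and in 8 h minus 2 h all 6 are filled and below zero.

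The comparison of 8 h with 2 h sets the 2 IFNa arrays against each other, 1 against 1, with the spread taken from the baseline arrays. All 6 members fell, and Nr4a3 and Nr4a1 showed the largest and second largest falls of all 10699 genes. Nr4a3 fell 12.5-fold (log2 difference −3.64, SE 0.23, adjusted p = 0.00161) and Nr4a1 7.66-fold (−2.94, SE 0.32, adjusted p = 0.0079). Egr2 fell 6.24-fold (−2.64, SE 0.24, adjusted p = 0.0074), the 6th largest fall. Nr4a2 fell by 1.51 (SE 0.23), Egr3 by 1.47 (SE 0.26) and Egr1 by 1.26 (SE 0.28) on the log2 scale, with adjusted p of 0.013, 0.0182 and 0.0313. All 6 of 6 compares with 10.8% of genes called lower (1.46% higher) between these arrays, where the median of all genes was −0.25 and that of the members −2.08. The call for Egr1 was lost with no filter on dim genes (adjusted p = 0.0647).

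Genes between and after Nr4a3, Nr4a1 and Egr2 among the 10 largest falls from 2 h to 8 h were Il2, the T cell growth cytokine, Bhlhe40, Ccr8, Skil, Dusp4, Atf3 and Nol10, with differences from −2.93 for Il2 to −2.53 for Nol10. Both called rise at 2 h and called fall below baseline at 8 h were found in 4 genes, 0.0374% of those tested, and 2 of these were Nr4a3 and Egr2. The others, named after their values were seen, were the chemokine receptor Ccr8 (1.35 and −1.46) and Taf4b, a subunit of a general transcription factor complex (1.21 and −0.97). Both comparisons use the same baseline arrays. At 8 h the limma adjusted p was near the threshold for Egr2 (0.0411) and Taf4b (0.0416). The Egr2 call at 8 h was lost with no filter and with the stricter one. A wider set of 62 genes (0.579%) was called higher at 2 h and lower from 2 h to 8 h, and it held 4 members, the NR4A genes and Egr2.

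**Figure D4:**
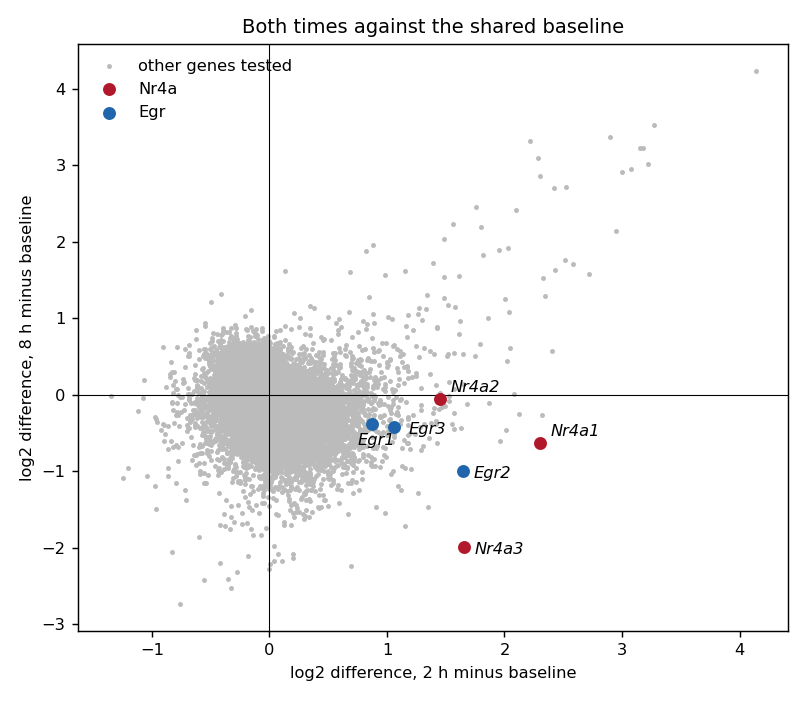
Log2 difference at 2 h (horizontal) against log2 difference at 8 h (vertical), both from the same 2 baseline arrays, for the NR4A genes (red), the Egr genes (blue) and the other genes tested (grey). Of the 6 members Nr4a3 lies lowest (1.66 and −1.99), while Nr4a2 (1.45 and −0.06) lies near the line of no difference at 8 h.

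Members differed in their profiles over the 4 arrays. The distance between 2 members was taken as the root mean square difference over the 4 arrays of log2 values less the baseline mean. This distance is not scaled, so it reflects the size of the changes as well as their shape. Egr1 and Egr3 were the closest pair (0.10) and Nr4a2 and Nr4a3 the farthest (0.97), and each of these pairs belongs to 1 family. Among other genes the nearest to Nr4a1 were Spsb1 (0.18), the MAP kinase phosphatase Dusp4 (0.21) and the stress gene Gadd45b (0.23). Nearest to Nr4a2 were the death ligand Fasl (0.06), the ubiquitin ligase Rnf149 (0.07) and the homeobox repressor Tgif1 (0.07). Nr4a3 had no close match, the nearest being Ccr8 (0.30), the helix-loop-helix repressor Bhlhe40 (0.34) and the stress factor Atf3 (0.44). Egr2 was nearest to the guanylate-binding protein Gbp5 (0.22), Taf4b (0.22) and the aryl hydrocarbon receptor Ahr (0.23). Egr3 was nearest to the MAP kinase antagonist Spry1 (0.04), the small GTPases Gem (0.05) and Rap2c (0.06), and Egr1 to Rab23 (0.02), Prkrip1 (0.04) and Sem1 (0.04). Nearest to the mean of the 6 were Gbp5 (0.07), the microRNA gene Mir18 (0.12), Ahr (0.13), the phosphatase Dusp5 (0.16) and Prrg4 (0.18).

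Among relatives and coregulators of these factors, of 17 tested none passed at 2 h, 1 fell at 8 h and 3 fell from 2 h to 8 h, with medians of 0.12, −0.09 and −0.15. For these lists and those below, the shares of all genes tested were 1.09% called higher at 2 h, 3.35% called lower at 8 h and 10.8% called lower from 2 h to 8 h. Crem, a CRE-binding factor of the cAMP pathway, stood at 1.05 at 2 h (SE 0.20, adjusted p = 0.0578), fell by 0.995 below baseline at 8 h (SE 0.20, adjusted p = 0.0383) and fell by 2.05 from 2 h to 8 h (SE 0.23, adjusted p = 0.0079). Elk3, a partner of serum response factor, stood at 0.98 at 2 h (adjusted p = 0.0734) and fell by 0.88 from 2 h to 8 h (adjusted p = 0.0463). Rxra, a nuclear receptor partner, also fell from 2 h to 8 h (−0.93, adjusted p = 0.0471). Both of these falls were called close to the threshold. Others did not pass in any comparison and are given for their role, the EGR corepressors Nab1 (0.30 at 2 h, −0.26 at 8 h) and Nab2 (0.22 and 0.12), serum response factor Srf (0.11 and −0.30) and the fourth family member Egr4 (0.12 and 0.46).

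Of 15 genes of calcium, calcineurin and NFAT signalling none passed at 2 h or 8 h. From 2 h to 8 h the calcium channel gene Orai2 rose (1.08, SE 0.24, adjusted p = 0.0313). The calcineurin subunit Ppp3ca fell (−0.90, SE 0.24, adjusted p = 0.046). List medians were 0.07, −0.07 and −0.04 in the 3 comparisons. Of 13 RAS and MAP kinase genes none passed at 2 h and 1 fell at 8 h, Spred1, an inhibitor of this pathway (−1.67, SE 0.21, adjusted p = 0.00633). From 2 h to 8 h Spred1 (−1.79) and Spry1 (−1.40), another inhibitor, fell. The list medians were 0.10, −0.42 and −0.52.

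Genes tied by textbook knowledge to these factors in T cells were counted in the same way. Of 13 tied to EGR2 and EGR3, 1 rose at 2 h, Fasl (1.45, SE 0.20, adjusted p = 0.0131), and 1 fell at 8 h, the cytokine signalling inhibitor Socs1 (−1.05, SE 0.23, adjusted p = 0.0452). From 2 h to 8 h 4 fell, Fasl (−1.43), the costimulatory receptor Tnfrsf9 (−1.41), Socs1 (−1.32) and the repressor Bcl6 (−0.96, adjusted p = 0.0382). Of 14 tied to NR4A factors none passed at 2 h, where the inhibitory receptor Pdcd1 stood at 0.84 (SE 0.22, adjusted p = 0.17). At 8 h Il2 (−2.23, SE 0.27) and the transcription factor Irf4 (−1.51, SE 0.24) fell, and both also fell from 2 h to 8 h (−2.93 and −1.68). The median differences of the 3 comparisons were 0.10, 0.00 and −0.10 for the first list and 0.19, −0.21 and −0.54 for the second.

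Other immediate early genes shared the direction of the members in part. Of 25 tested, 5 rose and none fell at 2 h, among them Gadd45b (2.12, SE 0.24), Dusp5 (1.57, SE 0.24), Ier5 (1.53, SE 0.23) and Klf10 (1.52, SE 0.20). At 8 h 5 fell, among them Nfil3 (−1.46, SE 0.20), Jun (−1.38, SE 0.23), Atf3 (−1.28, SE 0.24) and the growth regulator Myc (−1.20, SE 0.21). From 2 h to 8 h 12 fell and none rose, led by Atf3 (−2.54), Gadd45b (−2.37), Dusp5 (−2.02) and the activation marker Cd69 (−1.89). The medians were 0.41 at 2 h, −0.19 at 8 h and −0.87 from 2 h to 8 h, against 0.06, −0.16 and −0.25 for all genes tested and 1.55, −0.53 and −2.08 for the 6 members.

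**Figure D5:**
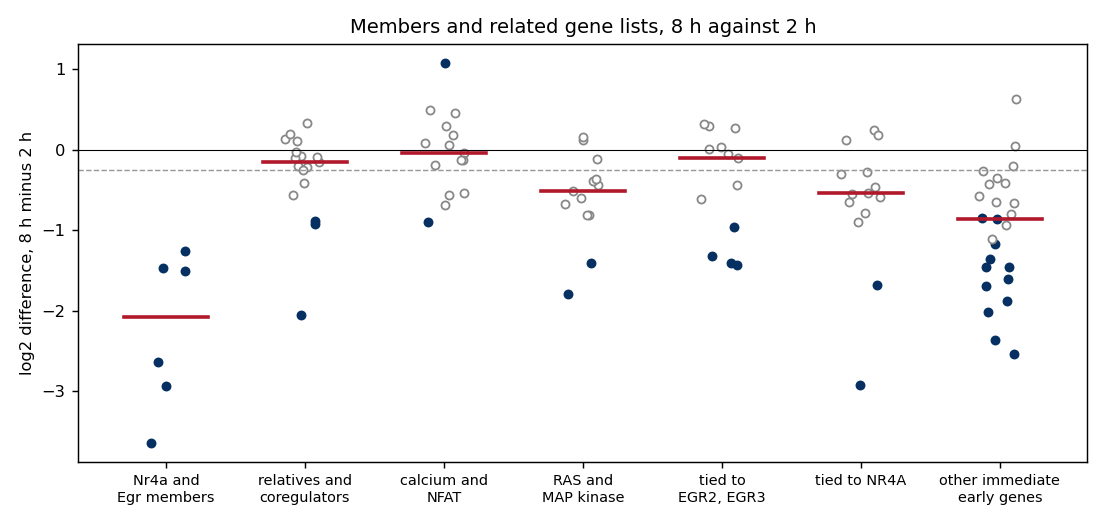
Log2 difference of 8 h minus 2 h for the members and for 6 related gene lists, 1 point per gene, filled where adjusted p was under 0.05, with list medians in red and the median of all genes dashed (−0.25). The members' median of −2.08 lies below that of each list, the nearest being the other immediate early genes at −0.87.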

How the data were processed

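The 4 RNA samples were read on Affymetrix Mouse Gene ST arrays. The values are intensity on a linear scale, deposited by the authors after processing with Affymetrix Power Tools and RMA (per the submitters' processing notes, no version named). The sources used here do not say which arrays were normalized together. Some unspecific signal can remain after RMA, which would shrink the fold of dim genes. Log2 was taken without a pseudocount.

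Rows with 1 gene symbol (21425 of 24922) were used, the row of highest mean standing for a gene with several. A gene was tested when it exceeded the array's median row on at least 1 array (10699 of 19752 genes). Limma 3.58.1 in R 4.3.3 fitted a mean per labelled treatment time, two-sided, with Benjamini-Hochberg adjustment over all genes tested and a threshold of 0.05. The spread rests on the 2 baseline arrays (1 residual degree of freedom, prior of 7.46 degrees of freedom with SD 0.175) and may be technical. Each lone IFNa array is taken to vary as they do. When tested on simulated data the script recovered large changes, but the share of false calls ran above the nominal level, so adjusted p-values near the threshold carry little weight.

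Named are the members, up to 4 called genes per list and comparison (otherwise up to 2 as values), the nearest profiles, and genes whose later choice is stated. The members and lists were chosen with earlier results of these data known. Alternatives were quantile normalization, median centring, no filter or a stricter one, a pseudocount of 32, a trended or robust prior, averaging the rows of a gene, testing every row, and leaving out 1 baseline array.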

Additional observations from a re-analysis of the deposited data

Results flagged for a closer look

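The differences of the 2 h and the 8 h array from the same baseline were unequal for each of the 6 members by the test of 8 h against 2 h (limma, adjusted p under 0.05, 1 array against 1). The log2 differences were −3.64 for Nr4a3 (adjusted p = 0.00161), −2.94 for Nr4a1 (0.0079), −2.64 for Egr2 (0.0074), −1.51 for Nr4a2 (0.013), −1.47 for Egr3 (0.0182) and −1.26 for Egr1 (0.0313). Each rests on 2 single arrays. The upper quartile of intensity was lowest on the 8 h array (574, against 669 to 769 elsewhere). After quantile normalization, which makes the arrays' distributions equal, all 6 differences were negative and called. In that setting 12.3% of all genes were called lower and 9.25% higher, against 10.8% and 1.46% in the fit reported. The difference of Egr1 shrank to −0.85.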

How the results depend on the processing

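No paired analysis was possible because each IFNa group has 1 array and the labels give no pairing of arrays. No member's difference turned its sign under any of the 9 tested alternatives or with 1 baseline array left out. Of 54 member values per comparison, 46, 50 and 47 kept their side of the threshold at 2 h, 8 h and 8 h against 2 h. With all rows tested limma called none in any comparison (members called 0, all genes 0), with 1141, 2883 and 4971 rows at an unadjusted p under 0.05, more rows tested and a prior of 3.51 degrees of freedom. Members called at 8 h numbered 1 with no filter and 1 with the 60th percentile filter. All genes called at 2 h numbered 118 in the fit reported, 441 after quantile normalization and 298 on centred arrays. At 8 h they numbered 428, against 1563, 794, 143 with no filter and 255 with the stricter filter. From 2 h to 8 h they numbered 1311, against 2306 after quantile normalization, 2387 on centred arrays and 415 with no filter. Lower calls from 2 h to 8 h were 1155 with 156 higher, 1316 with 990 after quantile normalization and 2315 with 72 on centred arrays. At 8 h the split was 358 lower and 70 higher, 900 and 663 after quantile normalization. At 2 h it was 117 higher and 1 lower, and 332 and 109 after quantile normalization. The prior degrees of freedom were 34.8 after quantile normalization and infinite on centred arrays, so p-values there rest on nearly 1 spread for all genes. The cause of the other shifts was not tested.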
